A study of Mus musculus with 10 samples.

Results

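Distal sites that were open in reactivated neural stem and progenitor cells (NSPCs) alone were drawn from 6 lists of ATAC-seq peaks. Peaks that overlapped or abutted on chromosomes 1 to 19 were merged into 105302 sites. A site was kept when both reactivated libraries had a peak in it, when none of the 4 quiescent and activated libraries had one, and when it lay outside the 1 kb on either side of every annotated transcription start site (TSS). This left 12060 sites, or 11.5% of all merged sites. The sites were thus chosen by the ATAC peaks themselves, so the presence and strength of these peaks are given as a description, without a test.

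The cells were primary cultures from C57BL/6 mice at postnatal day 5, which hold a mixture of stem and progenitor cells. Activated NSPCs grew with FGF2 and EGF, both at 20 ng/ml. Quiescent NSPCs were held with FGF2 and 25 ng/ml BMP4 for 4 days per the labels, and the methods give a shorter exposure before ATAC-seq. Reactivated NSPCs went through the same BMP4 treatment and were then returned to growth medium for 9 to 12 days. Each state had 2 ATAC-seq libraries. The methods call those of quiescent and activated cells biologically independent, and a supplementary legend calls those of every state biological replicates. H3K4me3 ChIP-seq was done once each in quiescent and activated cells, with an input library for each.

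ATAC-seq marks open chromatin, because the Tn5 transposase inserts adapters where nucleosomes and other proteins leave the DNA exposed. Open sites far from promoters are often enhancers or sites bound by CTCF, the protein that anchors chromatin loops. H3K4me3 is the histone mark of active or poised promoters and is mostly low at enhancers. In neural progenitors, E-boxes are read by basic helix-loop-helix factors such as Olig2, and NFI and AP-1 sites by the NFI and Fos/Jun families.

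Sequences of 200 bases around the ATAC summit of 6 of these sites are shown first, since the results turn on what such windows hold. They were chosen as the strongest site, the strongest site with each of the AP-1, NFI, CAGCTG and CTCF motifs, and the strongest with an H3K4me3 peak in both states. Sites next to an assembly gap and sites mostly in repeats were passed over. All are from the plus strand of mm10 (GRCm38.p6), and capitals mark every match to the motif named.
Slc7a11 intron, chr3:50422019-50422218, strongest site, no motif marked: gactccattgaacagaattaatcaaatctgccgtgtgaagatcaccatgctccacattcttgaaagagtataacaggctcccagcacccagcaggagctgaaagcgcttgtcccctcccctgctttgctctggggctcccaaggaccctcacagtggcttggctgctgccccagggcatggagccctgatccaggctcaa
Meis1 intron, chr11:18913359-18913558, AP-1: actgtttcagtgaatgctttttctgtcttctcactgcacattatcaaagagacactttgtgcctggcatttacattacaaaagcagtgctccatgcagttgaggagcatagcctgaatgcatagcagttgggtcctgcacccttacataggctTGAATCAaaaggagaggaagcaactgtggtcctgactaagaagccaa
Srgap1 intron, chr10:121964187-121964386, NFI motif: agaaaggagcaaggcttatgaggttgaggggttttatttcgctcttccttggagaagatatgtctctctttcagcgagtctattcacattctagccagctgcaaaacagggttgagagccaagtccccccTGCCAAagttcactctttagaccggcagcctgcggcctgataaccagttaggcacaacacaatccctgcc
Upstream of Marcks, chr10:37170542-37170741, CAGCTG E-box: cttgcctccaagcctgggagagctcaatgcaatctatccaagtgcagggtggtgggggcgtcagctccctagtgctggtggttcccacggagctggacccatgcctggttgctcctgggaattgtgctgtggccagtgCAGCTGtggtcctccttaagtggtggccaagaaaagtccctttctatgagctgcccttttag
Hmox2 and Cdip1 intron, chr16:4763346-4763545, CTCF: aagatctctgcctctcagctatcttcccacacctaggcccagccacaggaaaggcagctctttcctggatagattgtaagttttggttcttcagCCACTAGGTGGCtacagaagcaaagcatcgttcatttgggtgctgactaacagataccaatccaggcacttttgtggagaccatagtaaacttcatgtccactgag
Ostm1 intron, chr10:42591758-42591957, H3K4me3 in both states, SP/KLF motif: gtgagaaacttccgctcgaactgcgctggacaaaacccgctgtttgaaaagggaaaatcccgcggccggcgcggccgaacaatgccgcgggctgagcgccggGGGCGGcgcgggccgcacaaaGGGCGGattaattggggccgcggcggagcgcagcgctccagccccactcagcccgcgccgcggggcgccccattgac

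The libraries differed in ways that follow the states. The reactivated lists held 106586 and 107137 peaks, against 47323 to 60881 in the other lists. The peak names show that reads of the reactivated libraries were downsampled before peak calling, and those of the other lists carry no such mark. The background pileup recovered from fold enrichment and p, which follows the number of reads, was 6.495 and 6.519 in the reactivated libraries, 6.012 to 6.61 in both activated libraries and quiescent replicate 1, and 12.1 in quiescent replicate 2. Longer lists thus went with a background like that of 3 of the other 4 libraries, and the processing and the state cannot be told apart. When every list was limited to its 46071 strongest peaks, the length of the shortest list on these chromosomes, the same rule gave 1065 sites in place of 12060. Of the 12060, 737 kept a peak in both shortened reactivated lists (6.11%), and these are here called top-ranked.

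Of 43655 distal sites with a peak in both reactivated libraries, the 12060 were 27.6% (exact binomial 95% interval 27.2% to 28.0%), which is the count fixed by the rule. A peak in 1 of the 4 other libraries was found at 7138 of these distal sites, in 2 at 8726, in 3 at 5445 and in all 4 at 10286. A further 3247 sites had the same pattern of peaks and lay within 1 kb of a TSS. By the same rule, 1639 distal sites had peaks in both quiescent libraries alone, and 84 in both activated libraries alone. With lists of equal length these counts were 3254 and 947, against the 1065 for reactivated cells. The order of the 3 states by number of state-specific sites therefore changed with the length of the lists. All intervals over sites cover counting error only.

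Choosing sites on the libraries numbered 1 and reading them in those numbered 2 kept the peaks of the choice and of the reading apart. The bounds of the sites, and so their distance to a TSS, still came from the merged peaks of all 6 lists. There were 24938 distal sites with a peak in reactivated replicate 1 and in neither quiescent nor activated replicate 1. Reactivated replicate 2 had a peak at 60.2% of them (59.6% to 60.8%), quiescent replicate 2 at 9.84% (9.47% to 10.2%) and activated replicate 2 at 5.61% (5.33% to 5.91%). The reverse choice gave 27421 sites, of which reactivated replicate 1 had a peak at 62.6% (62.0% to 63.2%), quiescent replicate 1 at 9.00% (8.67% to 9.35%) and activated replicate 1 at 15.7% (15.3% to 16.2%). In the lists as deposited, the share that recurred in the other reactivated library was thus higher than that in either other state, in both directions. With lists of equal length the reactivated shares were 50.2% and 52.5%, the quiescent ones 15.5% and 15.7%, and the activated ones 23.5% and 29.8%. A peak in 1 reactivated library and in no other library was found at 9302 distal sites for replicate 1 and 9322 for replicate 2.

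Most of the reactivated-only sites were weak. Fold enrichment, the pileup at the summit over the local background of the same library, had a median of 4.14 in reactivated replicate 1 (range 1.61 to 15.5) and 4.12 in replicate 2 (1.69 to 14.0). The median pileup was 33 and 32 reads. Distal sites with a peak in all 6 libraries had medians of 9.45 and 9.54 in the same reactivated libraries. Sites open in both activated and both reactivated libraries, with no quiescent peak, had 6.64 and 6.25, and sites open in both quiescent and both reactivated libraries, with no activated peak, had 4.80 and 5.24. Sites of all 6 libraries were also wider, at a median of 529 bp against 256 bp for the reactivated-only sites. This is the width of the merged site, which grows with the number of lists that have a peak there, so it cannot be read as strength. Of the reactivated-only sites, 3.35% in replicate 1 and 2.79% in replicate 2 lay above the 75th percentile of fold enrichment in their list.

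**Figure D1:**
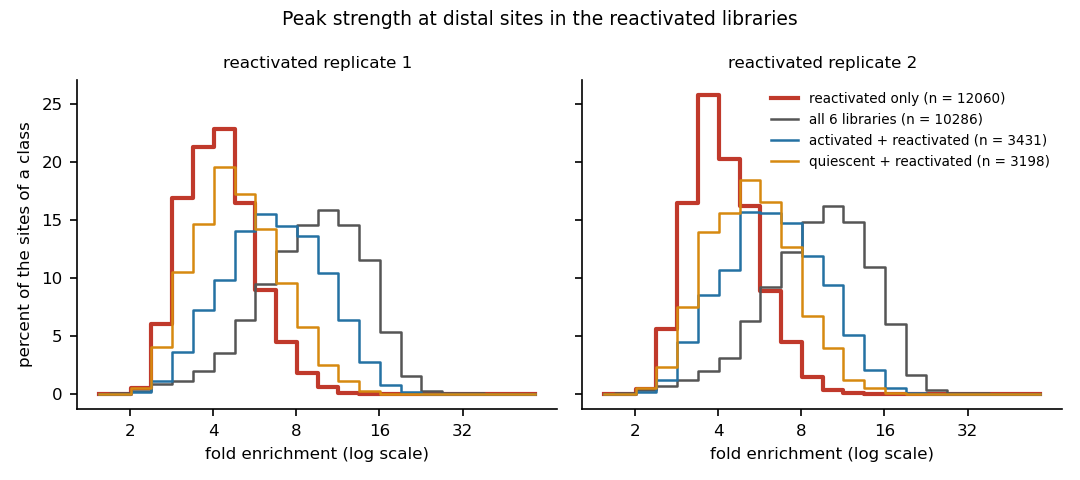
Distribution of fold enrichment (log scale) in reactivated replicates 1 and 2 at distal sites of 4 classes, as the percent of the sites of each class in steps of 0.25 on the log2 scale. The reactivated-only sites (12060 sites) lie lowest, with medians of 4.14 and 4.12, and sites with a peak in all 6 libraries lie highest, with medians of 9.45 and 9.54.

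Both replicates placed these sites alike but agreed less on their strength. The summits lay a median of 19 bp apart, and 83.7% lay within 50 bp. Across the 12060 sites, log2 fold enrichment in the 2 libraries had a Pearson r of 0.54, against 0.89 across sites of all 6 libraries, where the range of strength is wider. Sites are not independent replicates, and these values are a description.

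A missing peak in the quiescent and activated lists does not show that a site was closed. At the background of each of those 4 libraries, the lowest pileup called was 16 to 25, which corresponds to a fold enrichment of 1.99 to 2.42. Fold enrichment in both reactivated libraries was at least 1.5 times the upper of these limits at 6104 of the sites (50.6%), at least 2 times at 1970 (16.3%), at least 3 times at 190 (1.58%) and at least 4 times at 17. At the other sites, smaller differences between the states were not detectable from the lists. A −log10 q of at least 10 in both reactivated libraries was reached at 3687 sites (30.6%).

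The rule on distance divided sites of similar strength. Just inside it, sites 1001 bp from a TSS lay near Nek6 (fold enrichment 2.73 and 3.31 in replicates 1 and 2), Arhgef10l (5.67 and 4.79) and Fam69a (4.67 and 6.65), and 1 site at 1004 bp near Ccdc97 (3.18 and 3.99). Just outside it, sites of the same pattern lay at 1000 bp near BC117090 (4.27 and 2.93), 999 bp near Vgll4 (3.77 and 4.29), 998 bp near Gadd45b (7.204 and 4.52) and 997 bp near Pkd1 (4.36 and 2.93).

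The 12 strongest sites, by the mean percentile of fold enrichment in the 2 reactivated lists, all belonged to the top-ranked 737. The strongest was the 526 bp site chr3:50421841-50422366 in an intron of Slc7a11, which encodes the cystine-glutamate exchanger that feeds glutathione synthesis. Its fold enrichment was 15.1 in reactivated replicate 1 and 14.0 in replicate 2, from pileups of 134 and 130 reads. No quiescent or activated library had a peak there, and the nearest site with one lay 15534 bp away. The lower of its values was 5.79 times the upper limit of detection given above. The next site, chr10:37170482-37171128, lay 31885 bp upstream of Marcks, which encodes an actin-binding substrate of protein kinase C, and had values of 15.5 and 11.6.

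The site that followed, chr11:18913302-18913612, lay in an intron of Meis1, a homeodomain transcription factor gene, 98545 bp downstream of the nearest TSS of that gene, and had values of 12.4 and 13.0. The summits of its replicates were 1 bp apart. At chr2:153009166-153009939, in an exon of Pdrg1, a gene named for its regulation by p53 and DNA damage, fold enrichment was 11.7 and 12.4. An intron of Stxbp5, which encodes the inhibitor of vesicle fusion tomosyn, held chr10:9889239-9889959 with 10.2 and 14.0. An intron of Srgap1, a GTPase-activating protein of Slit-Robo signaling, held chr10:121964114-121964496 with 12.4 and 9.84. Gas7, a gene for a cytoskeletal protein found in growth-arrested cells, held chr11:67482240-67482866 in an intron with 12.9 and 9.42. The intergenic site chr17:3597937-3598277, nearest to the mitochondrial rRNA methyltransferase gene Tfb1m at 40326 bp, had 10.1 and 11.6. At these 8 sites the lower of the 2 values was at least 9.42, near the median of sites open in all 6 libraries.

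Another 3 of the 12 lay mostly in repeats. Sites in introns of the ubiquitin ligase gene Mylip (11.3 and 11.04), of E130307A14Rik near the polymerase gene Rev3l (12.1 and 9.97) and of the netrin receptor gene Dcc (9.74 and 12.1) were 155 to 170 bp wide, with 85.5% to 88.5% of the window in repeats. Over all reactivated-only sites, 383 (3.18%, 2.87% to 3.50%) had over 50% of the window in repeats, against 5.71% of all distal sites. The share was 0.874% (0.591% to 1.25%) at sites of activated and reactivated cells and 1.66% (1.24% to 2.16%) at those of quiescent and reactivated cells. At sites of all 6 libraries it was 3.40% (3.06% to 3.77%), with an interval that overlapped that of the reactivated-only sites. A single reactivated-only site matched mitochondrial DNA.

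By the middle of the site, 6531 of the 12060 lay in introns (54.2%, 53.3% to 55.0%), 4943 between genes (41.0%, 40.1% to 41.9%) and 586 in exons (4.86%, 4.48% to 5.26%). The intron share was higher than at distal sites of all 6 libraries (50.7%, 49.8% to 51.7%), with intervals that did not overlap. It was 52.4% (52.0% to 52.7%) over all distal sites and 51.5% (49.8% to 53.2%) at sites of activated and reactivated cells. The interval of the reactivated-only sites overlapped that of sites shared by quiescent and reactivated cells (56.0%, 54.2% to 57.7%). The nearest TSS lay a median of 14069 bp away, and 39.6% of the sites had a TSS within 10 kb. On single chromosomes, the sites were between 25.1% (chromosome 3) and 30.8% (chromosome 19) of the distal reactivated sites, so no chromosome stood far from the total of 27.6%. Another reactivated-only site lay within 10 kb of 20.6% of them, and a site with a quiescent or activated peak within 1 kb of 14.8%.

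The rule did not use H3K4me3, but the mark was measured only in quiescent and activated cells, where the rule required no ATAC peak. Its share at these sites is thus not independent of the rule. The mark was found at few of them, as at distal sites in general. A peak of the mark was found at 617 sites in quiescent cells (5.12%, 4.73% to 5.52%) and at 510 in activated cells (4.23%, 3.88% to 4.60%). Either state had one at 663 sites (5.498%, 5.10% to 5.92%), against 6.65% of all distal sites (6.48% to 6.83%). The share was below that at distal sites of all 6 libraries (19.6%, 18.9% to 20.4%) and at those of activated and reactivated cells (8.60%, 7.68% to 9.59%), and above that at sites of quiescent and reactivated cells (3.72%, 3.09% to 4.44%). With lists of equal length, the intervals of the reactivated-only sites (6.42% to 9.77%) and those of quiescent and reactivated cells (4.65% to 8.02%) overlapped. The classes also differ in width, which an overlap of 1 bp does not correct for. Median widths were 256 bp for the reactivated-only sites and 529 bp for those of all 6 libraries. They were 435 bp for sites of activated and reactivated cells and 368.5 bp for those of quiescent and reactivated cells. H3K4me3 in reactivated cells was not measured here.

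The order of the 4 classes was alike at every distance from a TSS. Between 1 and 5 kb, 10.97% of the reactivated-only sites (9.79% to 12.2%) overlapped the mark, against 27.7% of sites of all 6 libraries (25.9% to 29.5%). Beyond 25 kb the shares were 3.18% (2.64% to 3.78%) and 14.6% (13.3% to 15.9%). The intervals of sites of quiescent and reactivated cells overlapped those of the reactivated-only sites both between 1 and 5 kb (7.82%, 5.95% to 10.1%) and beyond 25 kb (2.30%, 1.495% to 3.38%).

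**Figure D2:**
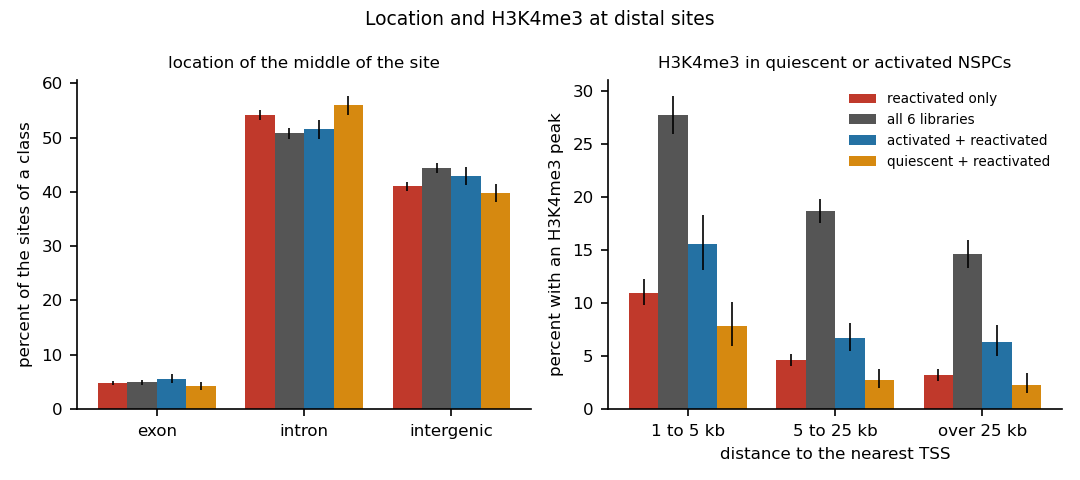
Percent of distal sites of 4 classes by the location of their middle (left), and percent that overlapped an H3K4me3 peak of quiescent or activated NSPCs by distance to the nearest TSS (right), with exact binomial 95% intervals as lines. The reactivated-only sites (red) were in introns at 54.2% and carried the mark at 10.97% between 1 and 5 kb from a TSS, against 27.7% for sites with a peak in all 6 libraries.

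The 663 marked sites had a different base composition from the 11397 others. They held a mean of 7.31 CpG dinucleotides in 200 bp against 2.92, and the SP/KLF motif GGGCGG, found in GC-rich promoters, at 22.2% against 6.53%. CTCF motifs were found at 1.81% of them against 6.32%. The H3K4me3 peaks they overlapped were mostly weak, with a median fold enrichment of 6.42 in quiescent cells and 7.39 in activated cells, against 28.3 and 28.2 over the whole lists.

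The Ostm1 site among the printed sequences, chr10:42591532-42592131, lay 7994 bp downstream of a TSS of this lysosomal membrane protein gene and held 29 CpGs. Its ATAC fold enrichment was 9.08 and 11.4 in the reactivated libraries, and that of H3K4me3 was 23.0 in quiescent and 17.97 in activated cells. The 4 sites with the strongest H3K4me3 had low ATAC fold enrichment but pileups of 38 to 86 reads in replicate 1 and 37 to 62 in replicate 2, above the medians of 33 and 32 reads. Their local background was therefore high. A site in an exon of Irf2bpl had 70.8 and 61.2 for H3K4me3 in quiescent and activated cells and 2.61 and 2.91 for ATAC in the reactivated libraries. A site in an intron of the lipid phosphatase gene Plpp3 had 63.5 and 58.9 for the mark and 2.74 and 3.04 for ATAC, and both sites at Sox8, a gene of the glial SoxE factors, had 65.0 and 55.6 for the mark.

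Motifs were searched as exact matches on both strands of 200 bp around the summit, with 26 motifs in all. AP-1 was TGANTCA, the NFI motif TTGGCA, and the CTCF motif a consensus of 12 letters that can hold CAGGTG within it. The AP-1 pattern allows any middle base, so it is wider than the Fos/Jun consensus, which has C or G there. Matches such as TGAATCA, the one printed for Meis1, are counted in all AP-1 values and were not separated. The search used sequence alone and was independent of the rule, apart from the position of the summit. The CAGCTG E-box was found at 3094 of the reactivated-only sites (25.7%, 24.9% to 26.4%), the NFI motif at 2735 (22.7%, 21.9% to 23.4%), AP-1 at 977 (8.10%, 7.62% to 8.60%) and CTCF at 732 (6.07%, 5.65% to 6.51%). Over all 78446 distal sites the shares were 23.5%, 21.8%, 8.79% and 4.81%.

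Of the 4 E-boxes searched, CAGCTG and CAGATG were less frequent than at sites shared by activated and reactivated cells. There, CAGCTG was found at 46.3% (44.6% to 47.9%) and CAGATG at 31.2% (29.6% to 32.8%), against 25.7% and 20.0% (19.3% to 20.8%) at the reactivated-only sites. For CACGTG, at 2.86% (2.57% to 3.17%) of the reactivated-only sites and 3.70% (3.09% to 4.39%) of the shared ones, the intervals overlapped. All distal sites held CAGATG at 19.8% (19.6% to 20.1%) and CACGTG at 2.75% (2.64% to 2.87%). Both intervals overlapped those of the reactivated-only sites. The NFI share was below that of sites shared by quiescent and reactivated cells, where the motif was found at 30.2% (28.6% to 31.8%). With lists of equal length this difference was lost, at 28.1% (25.4% to 30.9%) against 31.7% (28.6% to 35.0%). In the lists as deposited, for both CAGCTG and NFI they lay between these 2 classes or level with the lower of them.

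CAGGTG, an E-box bound by Snail and Zeb repressors as well as by E proteins, was found at 14.1% of the reactivated-only sites (13.5% to 14.7%), against 11.9% of all distal sites (11.7% to 12.1%) and 9.56% of those of all 6 libraries (9.00% to 10.1%). Sites of activated and reactivated cells held it at 15.4% (14.2% to 16.7%), with an overlapping interval. Without the sites that held a CTCF match, the shares were 13.2% (12.6% to 13.8%) at the reactivated-only sites and 8.76% (8.20% to 9.34%) at those of all 6 libraries. The SOX motif CATTGTT, read by Sox2 and its relatives in neural progenitors, was found at 5.21% (4.82% to 5.62%), against 3.98% of all distal sites (3.85% to 4.12%), 3.55% of those of all 6 libraries (3.199% to 3.92%) and 6.44% of those of activated and reactivated cells (5.64% to 7.32%). The GATA motif AGATAA, at 5.87% (5.46% to 6.31%), was near its share at all distal sites (5.59%, 5.43% to 5.75%), while sites of all 6 libraries held fewer (3.69%, 3.34% to 4.08%). The TEAD motif CATTCCA had overlapping intervals at the reactivated-only sites (4.15%, 3.81% to 4.53%) and at those of all 6 libraries (4.28%, 3.89% to 4.69%).

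**Figure D3:**
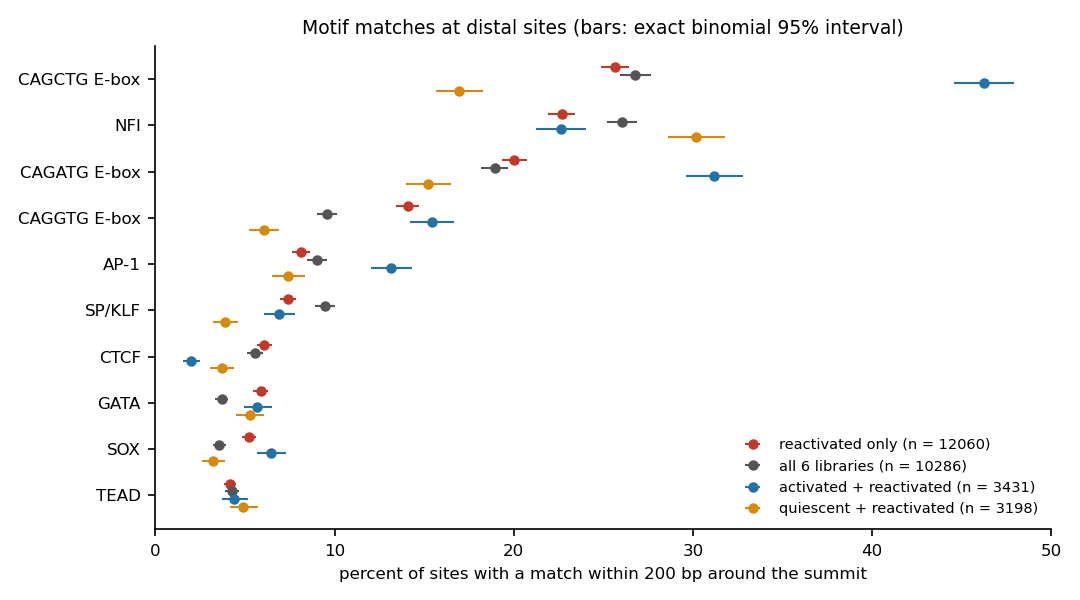
Percent of distal sites of 4 classes with an exact match to each of 10 motifs within 200 bp around the ATAC summit; points are shares and lines exact binomial 95% intervals. At the reactivated-only sites (red) CAGCTG was found at 25.7%, against 46.3% of sites shared by activated and reactivated cells and 16.9% of those shared by quiescent and reactivated cells.

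CTCF matches were more frequent at the reactivated-only sites than at sites shared with activated cells (1.98%, 1.54% to 2.51%) or quiescent cells (3.69%, 3.06% to 4.40%), and near the share at sites of all 6 libraries (5.54%, 5.11% to 6.00%). With the reactivated-only sites split by strength into 5 groups of about equal size, from the weakest to the strongest, the CTCF share was 2.11%, 5.32%, 8.70%, 8.33% and 5.90%, so that sites of middle strength held most of the matches. Among the top-ranked sites it was 3.39% (2.21% to 4.97%), below the 6.24% (5.81% to 6.71%) of the others. With lists of equal length the CTCF share fell below that of sites of all 6 libraries (2.72%, 1.83% to 3.89%, against 5.16%, 4.68% to 5.67%), which turns the order around. It was then also below the 3.21% (2.12% to 4.63%) of sites of quiescent and reactivated cells, with overlapping intervals, and above the 0.861% (0.519% to 1.34%) of those of activated and reactivated cells.

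The matches gathered at the summits. CTCF was found 27.0 and 32.1 times per 1000 sites in the 50 bp bins on either side of the summit, a mean of 29.6, and 0.373 times at 300 to 500 bp, a ratio of 79.2. This ratio was 3.37 for CAGCTG, 2.52 for NFI and 1.53 for AP-1. The CTCF pattern has 12 letters and the others 6 or 7. Longer patterns match less often in the flanks, so the ratios are not comparable between motifs. For CTCF the ratio was 46.5 at sites of all 6 libraries, 37.1 at those of activated and reactivated cells and 51.6 at those of quiescent and reactivated cells. For CAGCTG the ratio was close to that at sites of all 6 libraries (3.39) and lower than at sites of activated and reactivated cells (6.25).

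**Figure D4:**
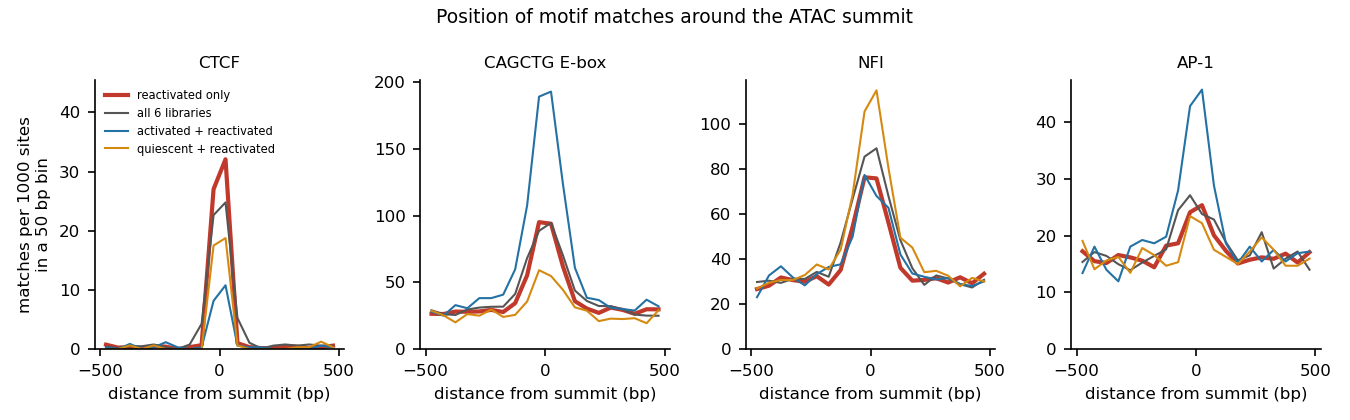
Matches per 1000 sites in bins of 50 bp within 500 bp of the ATAC summit, for 4 motifs and 4 classes of distal sites. All 4 motifs peak at the summit of the reactivated-only sites (red), with a ratio of centre to flank of 79.2 for CTCF, 3.37 for CAGCTG, 2.52 for NFI and 1.53 for AP-1.

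The 2 reactivated libraries differed in AP-1 and in other motifs. Distal sites with a peak in reactivated replicate 1 alone held AP-1 at 5.68% (5.21% to 6.17%), and those of replicate 2 alone at 14.5% (13.8% to 15.2%). In the other direction, CAGGTG was found at 15.3% (14.6% to 16.02%) and 11.2% (10.6% to 11.9%), and NFI at 20.9% (20.1% to 21.8%) and 17.3% (16.6% to 18.1%). The TEAD, RFX and palindromic NFI motifs were likewise more frequent in replicate 1 alone, and the homeobox motif in replicate 2 alone, with intervals that did not overlap. Over all distal sites with a peak in the library, the AP-1 shares were 8.09% and 10.01% for reactivated replicates 1 and 2. The quiescent libraries had 7.78% and 7.87%, and the activated ones 9.81% and 9.78%. When replicate 1 was left out of the rule, AP-1 was found at 10.9% of the sites then chosen, and without replicate 2 at 7.05%. The AP-1 share of the reactivated-only sites thus varied with the library by more than its difference from sites of all 6 libraries, where it was 9.00% (8.46% to 9.57%). Sites of activated and reactivated cells held AP-1 at 13.1% (12.0% to 14.3%), above the 7.05% and 10.9% with 1 reactivated library left out. At equal list lengths the shares were 6.95% (5.495% to 8.64%) at the reactivated-only sites and 11.9% (10.5% to 13.3%) at those of activated and reactivated cells.

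The 737 top-ranked sites were wider, at a median of 341 bp, with median fold enrichments of 7.204 and 7.05. They held NFI at 29.0% (25.8% to 32.5%) and CAGCTG at 30.5% (27.2% to 34.0%), both above the 22.3% (21.5% to 23.0%) and 25.3% (24.5% to 26.1%) of the other reactivated-only sites. For CAGGTG (12.6%, 10.3% to 15.2%), CAGATG, SOX and AP-1 the intervals of these groups overlapped. The CAGGTG interval of the top-ranked sites also held the 11.9% of all distal sites. H3K4me3 was found at 7.73% of the top-ranked sites (5.91% to 9.90%), and 55.1% lay in introns (51.4% to 58.7%).

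The genes near the sites were taken as protein-coding genes with a site from 25 kb upstream to 10 kb downstream of a TSS. Of 20780 such genes on these chromosomes, 4445 had at least 1 reactivated-only site, or 21.4%. Among the 10522 genes with any distal site of both reactivated libraries in the window the share was 42.2%. A top-ranked site was near 299 genes (1.44%). Of the 12060 sites, 7439 (61.7%) lay in the window of no protein-coding gene. No expression was measured in these files, so nearness says nothing of regulation.

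Mical2, which encodes an actin-oxidizing monooxygenase, had the most, with 10 of the 17 distal reactivated sites in its window. They spread over 188 kb of chromosome 7, with fold enrichments of 3.202 to 7.73 in replicate 1 and 2.87 to 7.05 in replicate 2. Itpr2, an inositol trisphosphate receptor that releases calcium, had 6 of 8, all in introns, and the Rac activator Prex1 had 6 of 19. The other 7 of the first 10 genes had 5 each. The phospholipase gene Plcb4 had 5 of 9, the tyrosine phosphatase gene Ptpn3 5 of 7, the cyclic nucleotide phosphodiesterase gene Pde10a 5 of 9, AU040320 5 of 7, the transcription factor gene Foxp1 5 of 9, Gas7 5 of 11, and Sufu, an inhibitor of hedgehog signaling, 5 of 11. In all, 24 genes had 5 sites and 3373 had 1. A gene with several TSSs has a window at each of them, and the 5 sites of Foxp1 spanned 503 kb. These counts and the shares of the gene lists below were not corrected for the length of sequence covered.

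Of the 16 gene lists, over all their genes, those for extracellular matrix and its receptors had the largest share of genes near a site, at 14 of 30 collagen, laminin and integrin genes (46.7%), against 21.4% of all genes. Among genes with any distal reactivated site the order was another, with 14 of 26 for this list, 7 of 12 for AP-1 factors, 9 of 16 for astrocytes and 3 of 5 for ependyma, against 42.2% of all such genes. By site, 21 of the 68 distal reactivated sites near the matrix genes were reactivated-only (30.9%), near the 27.6% of all distal reactivated sites. Col4a1 and Col4a2 shared a site. The site in an intron of the integrin gene Itgb3 had fold enrichments of 9.60 and 6.92, and that of the laminin gene Lama2 had 8.27 and 6.52. Lama5 had 5.31 and 5.47 at its strongest site and Itgb4 5.47 and 4.79. Itgb3, Lama2 and Col11a1 each had a top-ranked site.

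Among growth factor signaling genes, 10 of 23 genes of the EGF, FGF and ERK feedback list had a site (43.5%, against 21.4% of all genes), or 10 of the 19 with any distal reactivated site (against 42.2%). Counted by site, 13 of the 48 distal reactivated sites near these genes were reactivated-only (27.1%), near the 27.6% of all distal reactivated sites. The ETS factor gene Etv1, a target of FGF signaling, had an intronic site with 6.14 and 6.38, and the ERK phosphatase gene Dusp5 had 3 sites, the strongest with 6.74 and 5.52. The receptor genes Fgfr2 (5.87 and 6.12) and Fgfr3 (5.33 and 6.38) also had intronic sites. Etv1, Dusp5 and Fgfr3 had a top-ranked one.

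For the AP-1 factor genes the count was 7 of 16, against the same 21.4%. Bach2, a repressor that binds with small Maf proteins, had 5 sites, the strongest with 4.57 and 4.38, and Mafk (5.22 and 3.86), Batf3 (4.40 and 3.86) and Jdp2 (3.60 and 3.46) had 1 each. None was top-ranked. Of the BMP pathway genes 8 of 21 had a site (38.1%, against 21.4%), or 8 of the 16 with any distal reactivated site (against 42.2%). Counted by site, 9 of the 46 distal reactivated sites near BMP genes were reactivated-only (19.6%), against 27.6% of all distal reactivated sites. Near AP-1 factor genes this count was 11 of 26 (42.3%). The BMP sites named here were weak: the receptor gene Bmpr1a had 3.43 and 3.86, the effector genes Smad9 3.07 and 3.59 and Smad1 3.34 and 3.32, and the BMP target Id1 3.50 and 3.03.

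Cell cycle, Hippo and cytokine genes had shares of 28.6%, 31.3% and 27.3%, against 21.4% of all genes. Among genes with any distal reactivated site the counts were 6 of 14, 5 of 14 and 6 of 19, against 42.2%. The G1 list had 6 of 21, with the tumor suppressor Rb1 at 4.80 and 6.78, cyclin genes Ccne1 (4.14 and 4.39) and Ccnd2 (3.62 and 4.49) and the inhibitor gene Cdkn2a (4.09 and 3.51). Of TEAD and YAP genes 5 of 16 had a site, with 5.95 and 5.84 at Tead1, 4.80 and 7.18 at the kinase gene Lats2, 4.52 and 5.83 at the receptor gene Axl and 3.87 and 4.92 at Ajuba. The cytokine and NF-kB list had 6 of 22, among them Il1rap (4.80 and 6.38), Osmr (4.54 and 4.92), Stat3 (4.80 and 4.39) and Tnfaip3 (4.67 and 4.12). None of the 39 genes of the Hox clusters had a reactivated-only site, and the 17 with any distal reactivated site in the window shared only 5 such sites.

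**Figure D5:**
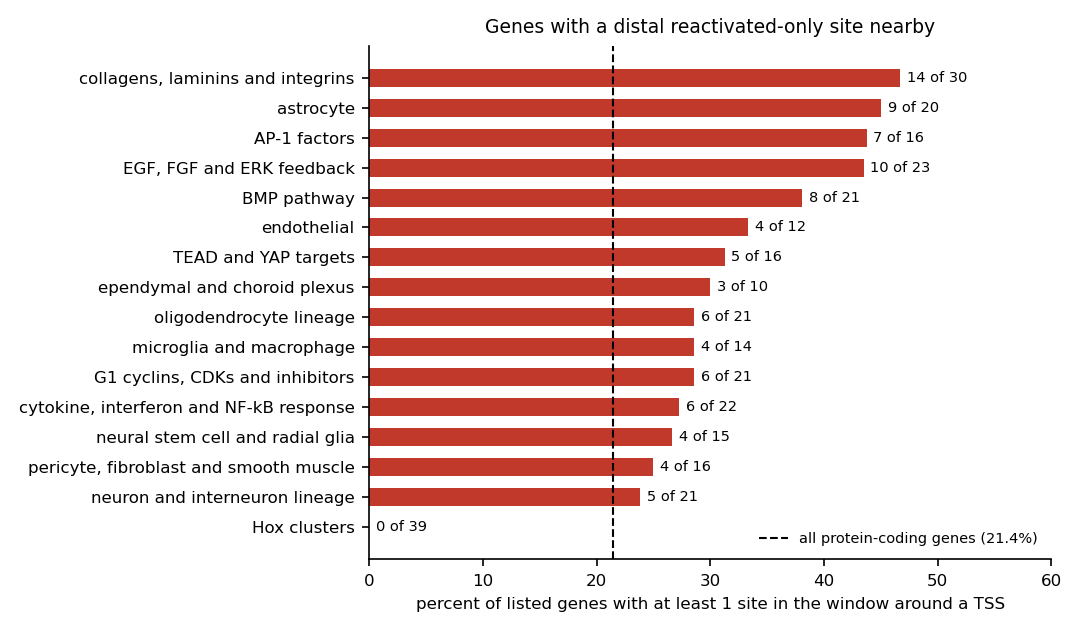
Percent of the genes of 16 lists with at least 1 reactivated-only distal site from 25 kb upstream to 10 kb downstream of a TSS, with the counts beside each bar; the dashed line is the share of all protein-coding genes, 21.4%. Over all genes of a list, collagens, laminins and integrins had the largest share (14 of 30) and the Hox clusters none (0 of 39).

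The astrocyte list had 9 of 20 genes near a site, including Fgfr3, Clu (5.79 and 5.46), Hopx (3.60 and 5.98) and S100b (3.50 and 6.19). The list of neural stem cells and radial glia had 4 of 15, which were Slc1a3, Vim, Fabp7 and Notch1. Slc1a3, a glutamate transporter gene of radial glia, had 3 sites, the strongest with 3.74 and 5.81. The receptor gene Notch1 had 5 of the 15 distal reactivated sites in its window, all weak, the strongest with 2.85 and 3.22. For the neuron list the count was 5 of 21, with Map2 (4.54 and 4.92) and Neurog2 (4.83 and 3.54), and for the oligodendrocyte list 6 of 21, with Zfp488 (6.04 and 4.98) and Nkx6-2 (4.50 and 5.23). The share of all genes was 21.4%. Among genes with any distal reactivated site, the neuron (5 of 15), oligodendrocyte (6 of 16) and stem cell lists (4 of 11) lay below the 42.2% of all such genes. By site, the reactivated-only shares were 25.0% for astrocytes, 20.8% for stem cells, 25.0% for neurons and 15.2% for oligodendrocytes. All lay below the 27.6% of all distal reactivated sites. Except for Fgfr3, no gene of these 4 lists had a top-ranked site.

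Genes of cell types that the cultures were not meant to hold also had sites, at 4 of 14 for microglia, 4 of 12 for endothelium, 4 of 16 for pericytes, fibroblasts and smooth muscle, and 3 of 10 for ependyma and choroid plexus. These shares were 25.0% to 33.3%, against 21.4% of all genes, and among genes with any distal reactivated site the counts were 4 of 9, 4 of 9, 4 of 10 and 3 of 5, against 42.2%. By site, the reactivated-only shares were 29.4%, 20.0%, 31.3% and 33.3%, against 27.6% of all distal reactivated sites. Examples were P2ry12 (6.67 and 4.65), Tek (5.07 and 4.26), Tagln (4.02 and 3.78) and Foxj1 (7.65 and 3.46). Promoter peaks at the genes of these lists bear on the label. All 6 libraries had promoter peaks at 14 or 15 of the 15 stem cell genes, with fold enrichments at Sox2 of 10.3 and 11.1 in the quiescent, 9.07 and 7.17 in the activated and 6.84 and 10.7 in the reactivated libraries.

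Promoters of other lineages were open more often in the reactivated lists as deposited. For neurons they were open at 19 of 21 genes in both reactivated libraries, against 9 to 14 in the others, and for pericytes, fibroblasts and smooth muscle at 12 and 11 of 16, against 5 or 6. Endothelial promoters were open at 7 and 5 of 12, against 2 to 5, and ependymal ones at 9 of 10, against 6 or 7. Oligodendrocyte promoters were open at 17 of 21, against 10 to 14, and astrocyte promoters at 20 and 19 of 20, against 15 to 18. For microglia the counts were 4 of 14 in both reactivated libraries and 3 or 4 in the others, with no peak at the promoters of Csf1r, Spi1, Ptprc or Aif1 in any library. With lists of equal length, the reactivated counts were 12 for neurons, 6 and 5 for pericytes, fibroblasts and smooth muscle, 4 and 3 for endothelium, 4 for ependyma and 16 for astrocytes, none of them above the highest count of the other libraries. For oligodendrocytes they were 10 and 13, against 10 to 12 in the other libraries. The part of other cell types in the reactivated-only sites was not tested beyond these counts.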

How the data were processed

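Per the labels and the study's methods, the authors trimmed the ATAC-seq reads (Trim Galore 0.4.0), aligned them to mm10 with Bowtie2 2.2.5, removed duplicates (Picard 1.88, SAMtools 1.3.1) and called peaks in each library with MACS at an FDR of 0.05. H3K4me3 peaks were called as broad regions against input. The deposited fold enrichment is a linear ratio, within 1 library, of the authors' pileup to its local background. The authors also gave each peak a −log10 p-value and a −log10 q-value, which rise with the depth of the library, and a deposited score that was not used. Reads were not analysed here, so a site counted as open where a list had a peak in it.

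Peaks were merged where they overlapped or abutted, and a site took the values of its strongest peak in each library. TSSs, exons and introns were those of GENCODE M21, and sequences were read from GRCm38.p6. H3K4me3 overlap needed 1 bp. Whole pileups were solved for with the MACS formulas of both columns, with −log10 p matched to within 0.02%, for at least 99.8% of 3000 peaks with a −log10 p below 40 drawn per library. No test over sites was run, and shares have exact binomial (Clopper-Pearson) 95% intervals, which cover counting error only. With 2 libraries per state, precision is limited by their spread.

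The sites, gene lists, motifs and alternatives were chosen with earlier results of these data known. Named sites were the 12 strongest, ranked by percentile within each reactivated list and then averaged, and 4 on each side of the distance limit. Named genes were the 10 with the most sites and up to 4 per list with the strongest sites, and not every one is printed; 1 of the 12 strongest sites is not reported here. The 6 printed sequences, none of them from chromosome 18, the sites with the strongest H3K4me3 and the top-ranked class were chosen after values were seen. Merging, classes, distances, pileups and motif matches were tested on simulated data. Alternatives were lists of equal length, a −log10 q of at least 10, merging across 150 bp, 2 kb on either side of a TSS, protein-coding TSSs alone, chromosomes X and Y, a motif window of 100 bp, H3K4me3 in both states, and each library left out in turn. Python 3.11.15 with numpy 2.4.6, pandas 2.3.3, scipy 1.17.1 and matplotlib 3.10.9, samtools 1.23.1 and BLAST+ 2.17.0 (e-value of 1e-10 for mitochondrial matches) were used.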

Additional observations from a re-analysis of the deposited data

How the results depend on the processing

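With every list limited to 46071 peaks, the rule gave 1065 sites, which were 6.32% of the distal sites of both reactivated lists. Only 737 of the 1065 (69.2%) overlapped a reactivated-only site of the full lists, so the shares that follow describe a partly different set. Of the 1065, 56.7% lay in introns, 7.98% had H3K4me3, and AP-1, NFI, CAGCTG and CTCF matches were found at 6.95%, 28.1%, 31.6% and 2.72%. The same lists were applied to 2 more results after seeing the data: the reactivated share in the libraries not used for the choice was 50.2% and 52.5%, and 2.11% of genes had a site. The shorter lists themselves remove weak peaks, in the quiescent and activated lists as well, so the set can both lose and gain sites. No other cause was tested.

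A −log10 q of at least 10 in all 6 lists left the count within 1.5 times, at 10409, and gave a share of 37.3%. H3K4me3 was then at 7.98%, NFI at 25.0% and CAGCTG at 28.5%. Only 3687 of the 12060 sites reached this limit in both reactivated libraries, so the similar count stood for a largely different set. The same limit in the reactivated lists alone left 3694 sites, or 13.3%, with 6.63% for H3K4me3, 23.4% for NFI, 27.3% for CAGCTG and 6.90% for CTCF. Merging across 150 bp gave 26.5% of the distal sites and 4.37% for H3K4me3. The 2 kb window gave 4.64% for H3K4me3, TSSs of protein-coding genes 6.29%, and a peak in both states 3.85%. Chromosomes X and Y brought the share of distal sites to 28.1%. Within 100 bp of sequence, AP-1 was found at 4.34%, NFI at 13.5% and CAGCTG at 16.4%, as the smaller window holds fewer matches. Where no construction is named, the cause was not tested.

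Leaving out 1 library at a time gave 13032 to 21953 sites, the upper values without reactivated replicate 1 (21953) or replicate 2 (21870). The share of distal sites was then 29.8% to 39.3%, introns 53.1% to 54.3%, H3K4me3 4.73% to 5.95%, AP-1 7.05% to 10.9%, NFI 20.1% to 23.0%, CAGCTG 23.8% to 27.2% and CTCF 5.02% to 6.58%. The values not given here stayed within 1.5 times for the count and within the interval for the shares. No paired analysis was possible because these results come from no test. The counts and shares of the reactivated-only sites are single values over sites defined from all 6 lists at once. Values per library, such as the AP-1 shares over all distal sites of a library and the promoter counts, were given as a description and were not paired. The replicate numbers served only to keep choice and reading apart.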

Other observations

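Among the motifs not described in the text, the octamer, STAT and NF-kB matches were found at 1.97%, 0.788% and 0.166% of the reactivated-only sites, against 2.03%, 0.724% and 0.241% of all distal sites. The ETS motif AGGAAGT was found at 6.11% (5.69% to 6.55%), against 9.94% (8.96% to 10.99%) of sites shared by activated and reactivated cells, 7.01% (6.52% to 7.52%) of sites of all 6 libraries and 6.45% (6.28% to 6.62%) of all distal sites. The RFX motif GTTGCCA was found at 5.53% (5.13% to 5.95%), against 6.92% (6.44% to 7.43%) of sites of all 6 libraries and 5.21% (5.06% to 5.37%) of all distal sites. The GC-rich motif GGCGCC, bound by BMP SMADs, was found at 3.32% (3.004% to 3.65%), against 1.54% (1.16% to 2.02%) of sites shared by activated and reactivated cells, 4.75% (4.35% to 5.18%) of sites of all 6 libraries and 3.07% (2.95% to 3.19%) of all distal sites. For all 3 motifs the interval of the reactivated-only sites overlapped that of all distal sites. No explanation for these shares was tested.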
